A study of Mus musculus with 6 samples.

Results

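Cadherins and protocadherins, the calcium-dependent adhesion genes of the Cdh and Pcdh families, were read on arrays of neurosphere cells overexpressing Bmi1 and of empty vector control cells. Members were all genes whose symbol in the array annotation is Cdh followed by a number or begins with Pcdh and that have a probe set naming no other gene. This gave 57 genes of 19938 with a probe set of their own. They comprise 18 classical cadherins, 5 other Cdh genes, 22 clustered protocadherins and 12 non-clustered protocadherins. For the 4 genes with more than 1 such probe set, the brightest on average over the 6 arrays stands for the gene.

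The study compared 3 neurosphere samples transduced with a pCMMP-Bmi1 retroviral vector, which also encodes eGFP, with 3 samples transduced with the empty vector, which encodes eGFP only (the text of the study speaks of a FLAG-tagged Bmi1, the labels of none). All came from cells of the lateral ventricle wall of CD1 mice aged 4 to 6 weeks, were sorted on eGFP and were grown at clonal density. The question was which genes respond to more BMI-1, a Polycomb protein that acts mainly as a repressor. The labels call the cultures independent but name no separate mice, so that the p-values rest on a spread between cultures that may be technical only. CD1 is an outbred strain.

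Classical cadherins join cells by binding the same cadherin on the neighbouring cell and are tied to the actin cytoskeleton through catenins. In the ventricle wall N-cadherin (Cdh2) holds neural progenitors at the ventricular surface. Clustered protocadherins of the alpha, beta and gamma clusters are expressed in combinations that differ from cell to cell and act in self-recognition of neurites. Non-clustered protocadherins, among them the delta-1 and delta-2 types, are weaker adhesion molecules with a role in cell sorting, axon growth and signalling to the cytoskeleton.

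Each value is 1 probe set on the log2 scale after robust multi-array average (RMA), so that a difference of 1 is a 2-fold change. Probe sets differ in how strongly they respond, and levels of different genes are therefore not compared. Differences are Bmi1 overexpression minus empty vector, and a gene rose or fell where limma gave an adjusted p under 0.05 over all 35557 probe sets. Array medians lay between 4.37 and 4.45. The targeted gene Bmi1 read 9.18, 8.36 and 8.42 in Bmi1-overexpressing samples and 7.70, 8.40 and 8.31 in empty vector samples, which was not past the threshold (difference 0.52, limma adjusted p = 0.38). Cdkn2a, a locus repressed by BMI-1, fell by 1.08 (limma adjusted p = 0.0012), and the ephrin receptor gene Epha7 read 3.26, 3.25 and 3.23 with Bmi1 and 7.12, 7.16 and 6.93 with the empty vector, a difference of -3.82 (limma adjusted p = 0.00011). For all 6 samples the source name in the labels contradicts the title and the transduction and genotype fields. These 3 were followed, and every sign below would turn if the source name were right. By qRT-PCR, the paper reports lower transcript levels of Epha7 variants in neurosphere cells overexpressing Bmi1. From its own array comparison too, it took Epha7 as a gene with lower transcript levels after Bmi1 overexpression. The fall of Epha7 given above has that direction, and with the groups of the source name Epha7 would have risen.

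Most of the family was not called, and the changes that passed lay in 3 of the 4 groups. Of the 57 genes, 6 fell and 3 rose, and 48 were not called (15.8% called), whereas 5.7% of all probe sets were called, 3.46% as lower and 2.23% as higher (1231 and 794 probe sets, after median centring 1467 and 593). Among all 19938 genes with a probe set of their own, 7.35% were called (4.37% lower, 2.98% higher). Among the 26 members with a mean of at least 5, 8 were called, beside 12.3% of all genes at such levels. The falls were those of 5 beta protocadherins and of Cdh22, and the rises those of Cdh11, Pcdh1 and Pcdh10. The median difference of the 57 genes was -0.01, beside 0.01 over all genes. Values of the groups did not overlap for 24 of the 57, 14 lower and 10 higher with Bmi1, and for 26.6% of all probe sets (31.3% of all genes). By the methods' t-test, with p under 0.001 and a change of at least 1, Pcdhb6 alone of the members passed, beside 0.844% of all probe sets. With 3 samples against 3, exact permutation of 1 gene has a smallest two-sided p of 0.1.

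**Figure D1:**
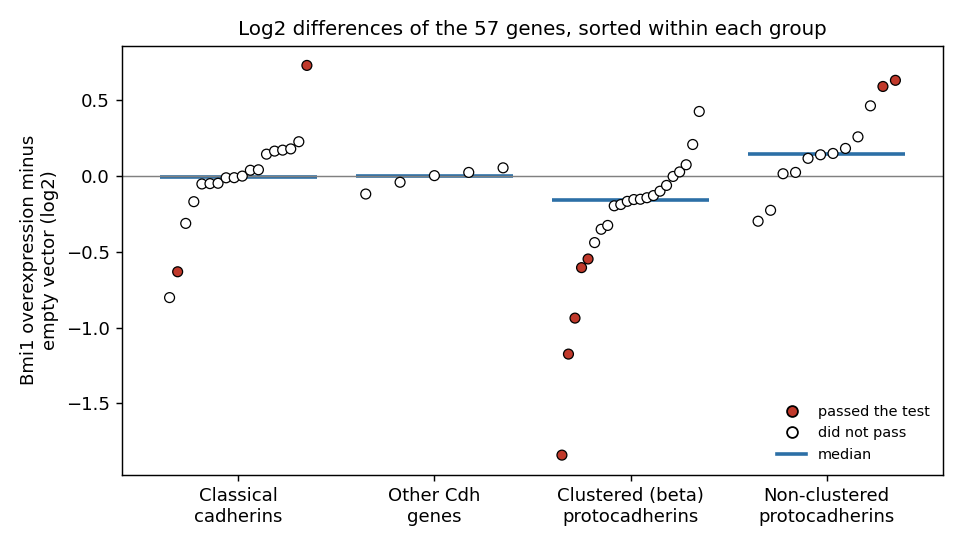
Log2 difference, Bmi1 overexpression minus empty vector (y axis), of the 57 genes in their 4 groups (x axis), sorted within each group, with filled points for the 9 genes that passed the test, open points for the others and a line at the group median. Clustered protocadherins reach down to -1.84, whereas the 5 other Cdh genes lie between -0.12 and 0.05.

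Clustered protocadherins held the largest changes. All 22 measured genes belong to the beta cluster on chromosome 18, where each gene is a single large exon with a promoter of its own. Of the 22, 5 fell and none rose, leaving 17 without a call. That is 22.7% lower, beside 3.46% of all probe sets and 4.37% of all genes. All 5 were among the 10 genes of the cluster with a mean of at least 5, and 7.46% of all genes at such levels fell. The median difference was -0.16, and 18 of the 22 differences were below 0, among all genes 9350 of 19938. The genes of the cluster are similar in sequence, and whether probes of 1 gene also read its neighbours was not tested.

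Pcdhb6 changed most. It read 4.58, 4.94 and 4.32 in Bmi1-overexpressing samples, against 6.53, 6.45 and 6.38 in empty vector samples. Every Bmi1 sample thus lay more than 1 unit below every empty vector sample. Its mean was 4.61 ± 0.31 with Bmi1 and 6.45 ± 0.07 with the empty vector (SD, n = 3 each), so that Pcdhb6 was 3.58-fold lower, the difference being -1.84 (SE 0.16, limma adjusted p = 0.0023). Pcdhb2 came next, with 4.53, 4.91 and 4.87 in Bmi1-overexpressing samples and 6.15, 5.69 and 6.00 in empty vector samples. The groups were apart although both spread by about the same amount, and the difference was -1.17 (SE 0.16, limma adjusted p = 0.010), a 2.26-fold fall.

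Pcdhb19 read 5.23, 5.55 and 5.05 with Bmi1 and 6.34, 6.27 and 6.03 with the empty vector, a difference of -0.94 (SE 0.15, limma adjusted p = 0.020). Its neighbour Pcdhb20 read 5.04, 5.44 and 5.21 with Bmi1 and 5.80, 5.71 and 5.82 with the empty vector, a difference of -0.55 (SE 0.11, limma adjusted p = 0.044). In both genes Bmi1 replicate 2 was the Bmi1 sample nearest to the empty vector samples, as it was for Pcdhb6. Pcdhb11 read 5.52, 5.49 and 5.61 with Bmi1 and 6.16, 6.21 and 6.05 with the empty vector, a difference of -0.60 (SE 0.08, limma adjusted p = 0.0080) that stood well outside the narrow spread of both groups. The calls of Pcdhb6, Pcdhb2 and Pcdhb11 held when any 1 sample was left out. That of Pcdhb19 was lost without Bmi1 replicate 1 or 3 or empty vector replicate 1 or 2 (limma adjusted p = 0.079, 0.057, 0.075 and 0.080), and that of Pcdhb20 without any sample except Bmi1 replicate 2 (limma adjusted p = 0.099 to 0.14).

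**Figure D2:**
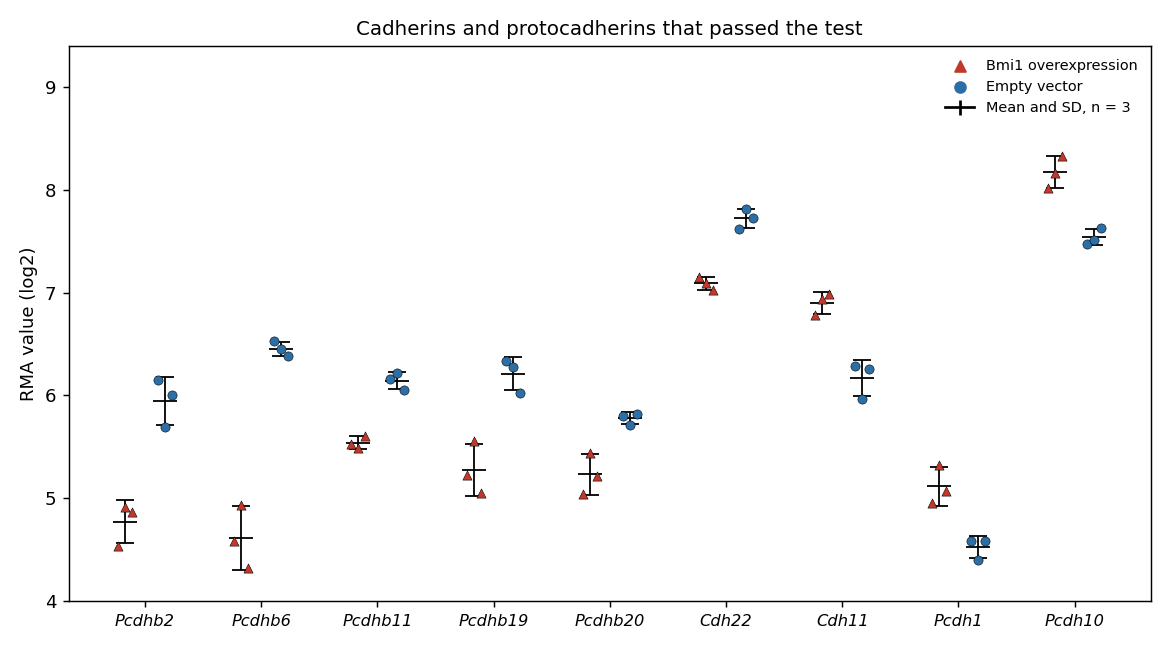
RMA values on the log2 scale (y axis) of the 9 genes that passed the test (x axis), with triangles for Bmi1-overexpressing samples, circles for empty vector samples and bars marking mean ± SD (n = 3). The 5 beta protocadherins and Cdh22 lie lower with Bmi1 and Cdh11, Pcdh1 and Pcdh10 higher, with no overlap between the groups.

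The 5 genes that fell were scattered along the cluster. In chromosomal order they are the genes numbered 2, 6, 11, 19 and 20, and genes between them did not pass the test. Pcdhb7, next to Pcdhb6, read 5.14, 5.28 and 5.00 with Bmi1 and 5.26, 5.20 and 5.45 with the empty vector, so that the groups overlapped (difference -0.17, 95% confidence interval -0.42 to 0.09). Pcdhb10, next to Pcdhb11, had a difference of 0.08 (95% confidence interval -0.22 to 0.37). Pcdhb16 was the gene with the highest positive difference of the cluster. It read 6.25, 6.09 and 6.23 with Bmi1 and 5.59, 5.94 and 5.76 with the empty vector, a difference of 0.43 and short of the threshold (limma adjusted p = 0.080) although the groups did not overlap.

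Dim probe sets were common in this cluster. Of the 22, 12 had a mean over the 6 arrays under 5, and none of these 12 was called. Among them Pcdhb3 had a difference of -0.44 (limma adjusted p = 0.15) without overlap between the groups, and Pcdhb1 one of -0.20 (limma adjusted p = 0.22). The 14 alpha genes are read together by 1 probe set that names all of them. It read 4.96, 4.99 and 4.98 with Bmi1 and 5.08, 5.08 and 5.03 with the empty vector, a difference of -0.09 (95% confidence interval -0.24 to 0.06, limma adjusted p = 0.49). Of the 22 gamma genes in RefSeq none was named by a probe set of the annotation, and they were not analysed here.

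**Figure D3:**
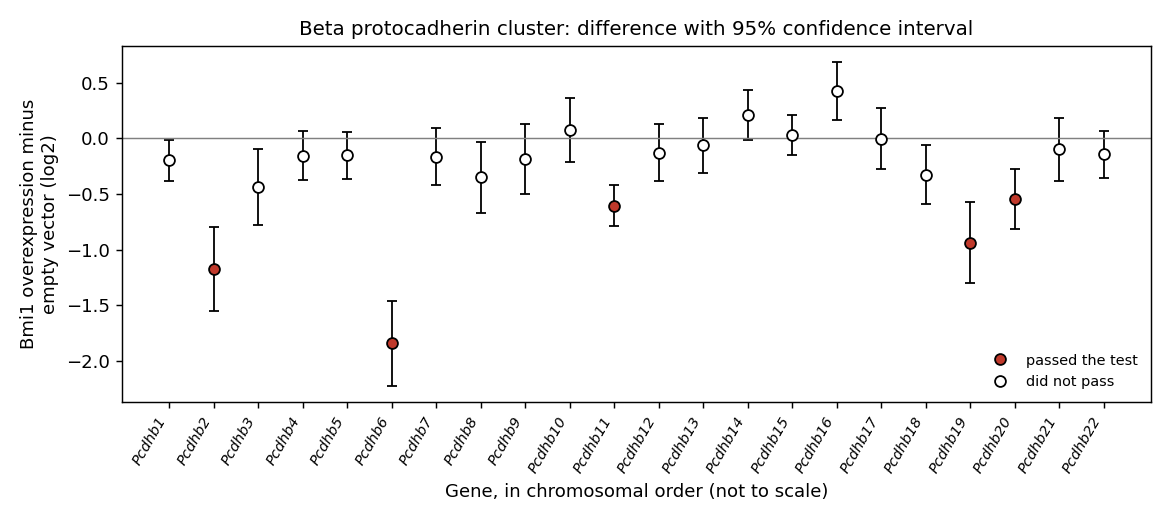
Log2 difference, Bmi1 overexpression minus empty vector, with its 95% confidence interval from limma (y axis), of the 22 beta protocadherins in chromosomal order (x axis, not to scale), with filled points for genes that passed the test. The 5 filled points, from -1.84 for Pcdhb6 to -0.55 for Pcdhb20, stand apart in position except Pcdhb19 and Pcdhb20, and the other 17 genes lie between -0.44 and 0.43.

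Among the 12 non-clustered protocadherins 2 rose and none fell, with 10 uncalled and a median difference of 0.15. That is 16.7% higher, beside 2.23% of all probe sets and 2.98% of all genes. Of the 7 with a mean of at least 5, 1 rose, beside 4.82% of all genes at such levels. Pcdh10, a delta-2 protocadherin that binds the actin-regulating WAVE complex, read 8.02, 8.16 and 8.33 in Bmi1-overexpressing samples and 7.48, 7.51 and 7.63 in empty vector samples. The groups were well apart, and the mean was 8.17 ± 0.16 with Bmi1 and 7.54 ± 0.08 with the empty vector (SD, n = 3 each), a difference of 0.63 (SE 0.10, limma adjusted p = 0.018) or 1.55-fold. Pcdh1, a delta-1 protocadherin, read 4.95, 5.32 and 5.07 with Bmi1 and 4.58, 4.40 and 4.58 with the empty vector, a difference of 0.59 (SE 0.12, limma adjusted p = 0.040). Both calls were sensitive to single samples, in fits that called 974 to 1275 of all probe sets in place of 2025. That of Pcdh10 was lost without Bmi1 replicate 2 or empty vector replicate 1, 2 or 3 (limma adjusted p = 0.066, 0.071, 0.076 and 0.053), and that of Pcdh1 when any 1 sample was left out (limma adjusted p = 0.055 to 0.13).

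The remaining delta protocadherins differed in direction. Pcdh18 (delta-2) read 6.19, 5.91 and 5.96 with Bmi1 and 5.64, 5.59 and 5.44 with the empty vector, a difference of 0.46 that narrowly missed the threshold (limma adjusted p = 0.053). Pcdh11x, on the X chromosome, had a difference of 0.26 and Pcdh17 one of 0.18, both without overlap between the groups (limma adjusted p = 0.13 and 0.22). On the other side, Pcdh19, mutated in a human epilepsy, had a difference of -0.30 (limma adjusted p = 0.15), and Pcdh7 one of -0.23 (limma adjusted p = 0.20), again without overlap. Pcdh9 read between 7.04 and 7.32 in both groups (difference 0.02, 95% confidence interval -0.25 to 0.28). For Pcdh8, a protocadherin induced by neuronal activity, the probe set was dim and the interval of the difference ran from -0.15 to 0.43.

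Pcdh15, which forms the tip links of inner ear hair cells together with Cdh23, gave different answers on its 2 probe sets. The one chosen by its higher mean read 5.09, 4.84 and 4.74 with Bmi1 and 4.73, 4.67 and 4.91 with the empty vector, and the groups overlapped (difference 0.12, 95% confidence interval -0.16 to 0.40). The other one read 5.14, 5.38 and 5.49 with Bmi1 and 4.42, 4.32 and 3.98 with the empty vector. There the groups were apart by a difference of 1.09 (SE 0.15, limma adjusted p = 0.011), a 2.13-fold rise. The means of the probe sets over all samples were 4.83 and 4.79, so that the choice between them was close. Which transcripts each probe set reads was not tested.

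The 18 classical cadherins changed little as a group. Of them 1 fell and 1 rose, with 16 uncalled, and the median difference was 0.00. That is 11.1% called, beside 5.7% of all probe sets and 7.35% of all genes. Both were among the 8 with a mean of at least 5, where 12.3% of all genes were called. None of the 5 type I cadherins passed. N-cadherin (Cdh2) read 9.16, 9.23 and 9.36 with Bmi1 and 9.31, 9.32 and 9.27 with the empty vector, which is an overlap (difference -0.05, 95% confidence interval -0.23 to 0.13). R-cadherin (Cdh4) had a difference of -0.17 (95% confidence interval -0.39 to 0.05). The epithelial E-cadherin (Cdh1) read between 3.81 and 4.05 with Bmi1 and between 3.71 and 3.81 with the empty vector (difference 0.15, 95% confidence interval -0.07 to 0.36), and P-cadherin (Cdh3) and the muscle cadherin Cdh15 had differences of 0.04 and -0.05.

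Changes were found among the 13 type II cadherins. Cdh22, a cadherin of pituitary and brain, read 7.15, 7.10 and 7.02 in Bmi1-overexpressing samples and 7.62, 7.81 and 7.73 in empty vector samples. Its spread was small beside the gap between the groups, and its mean was 7.09 ± 0.06 with Bmi1 and 7.72 ± 0.10 with the empty vector (SD, n = 3 each), a difference of -0.63 (SE 0.08, limma adjusted p = 0.0083) or a 1.55-fold fall. The call held when any 1 sample was left out. Cdh11, known from osteoblasts and mesenchymal cells, read 6.78, 6.93 and 6.99 with Bmi1 and 6.29, 5.96 and 6.25 with the empty vector, a difference of 0.73 (SE 0.11, limma adjusted p = 0.017). Cdh11 lost its call without Bmi1 replicate 2 or 3 or empty vector replicate 3 (limma adjusted p = 0.065, 0.064 and 0.054).

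A further 3 probe sets name Cdh11 together with 2 Riken genes. Their differences were -0.13, -0.04 and -0.10, none passed the test (limma adjusted p = 0.57, 0.79 and 0.61), and all overlapped between the groups, in contrast to the probe set of Cdh11 alone. Which of the 3 genes they read was not tested.

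**Figure D4:**
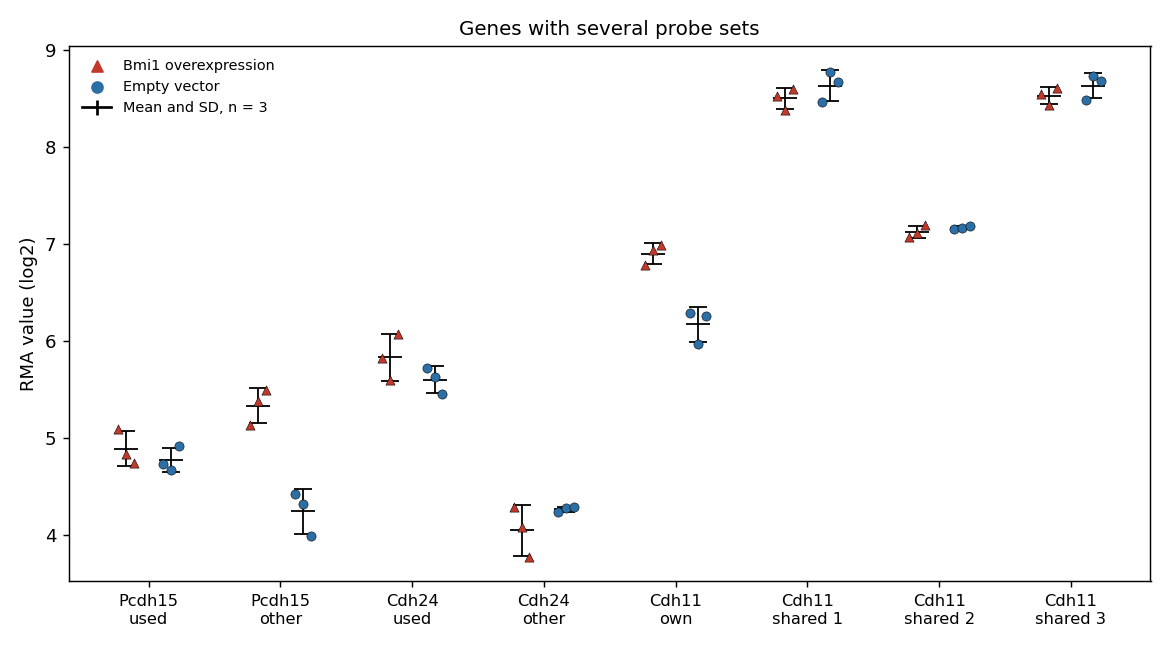
RMA values on the log2 scale (y axis) of the chosen and the other probe set of Pcdh15 and of Cdh24, and of the own probe set of Cdh11 beside 3 probe sets shared with other genes (x axis), with triangles for Bmi1-overexpressing samples, circles for empty vector samples and bars marking mean ± SD (n = 3). The groups are apart for the other probe set of Pcdh15 (difference 1.09) and the own probe set of Cdh11 (0.73) and overlap for the rest.

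Promoters of Pcdh10 and Cdh22 are shown since these are 2 called genes, 1 that rose and 1 that fell, with an entry among the promoters from RefSeq (GRCm38.p6), and since Polycomb complexes are known to occupy promoters rich in CG dinucleotides. Each is the 250 bases before the annotated start, 5′ to 3′ on the strand of the gene, with every CG in capitals. Pcdh10 lies on the plus strand at chr3:45378148-45378397 and Cdh22 on the minus strand at chr2:165234738-165234987.
Pcdh10: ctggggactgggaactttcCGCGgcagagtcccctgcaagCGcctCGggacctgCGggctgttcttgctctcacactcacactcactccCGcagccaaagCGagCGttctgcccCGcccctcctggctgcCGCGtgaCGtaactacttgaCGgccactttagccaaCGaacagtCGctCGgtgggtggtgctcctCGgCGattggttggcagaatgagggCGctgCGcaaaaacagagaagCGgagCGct
Cdh22: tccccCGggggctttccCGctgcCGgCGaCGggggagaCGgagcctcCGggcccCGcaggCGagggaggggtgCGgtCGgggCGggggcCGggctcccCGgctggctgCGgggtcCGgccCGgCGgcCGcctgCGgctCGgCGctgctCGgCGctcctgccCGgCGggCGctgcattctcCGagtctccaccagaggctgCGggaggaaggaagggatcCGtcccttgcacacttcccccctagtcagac
The Pcdh10 window holds 22 CG, a number reached by 14.8% of the 32851 promoters of the table, and the Cdh22 window 30, reached by 5.94%. The gene that rose and the gene that fell thus both had CG-rich windows.

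Windows were counted only for members off chromosome 18. The 25 members on that chromosome, which include 6 of the 9 called genes (the 5 beta protocadherins and Pcdh1), were left out of this count. Of the 32 other members, 22 had a window in the table, 25 windows in all. Cdh7 and Pcdh9 had more than 1 window each, and every window was counted. Of these 25, 13 held at least 10 CG, beside 37.8% of all promoters. The sequence CACCTG, bound by the repressors Snai1, Snai2 and Zeb1, was found on either strand in 3 of the 25 windows, beside 17.2% of all promoters. These windows belong to the genes Cdh7 and Pcdh15 only, and neither the Pcdh10 nor the Cdh22 window held the sequence.

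Other type II cadherins stood near the threshold. Cdh19, known from glia of the peripheral nervous system, read 4.06, 4.33 and 3.61 with Bmi1 and 4.86, 4.82 and 4.73 with the empty vector, a difference of -0.80 that missed the threshold (SE 0.18, limma adjusted p = 0.060). The Bmi1 samples were far more spread than the others, by 0.37 against 0.07 (SD, n = 3 each). Cdh10 read 7.90, 7.91 and 7.97 with Bmi1 and 8.17, 8.24 and 8.30 with the empty vector, a smaller difference of -0.31 with a tight spread (SE 0.07, limma adjusted p = 0.054). Cdh20 and Cdh6 had differences of 0.18 and 0.17 without overlap (limma adjusted p = 0.25 and 0.30). The 2 probe sets of Cdh24 had differences of 0.23 and -0.22, neither past the test.

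None of the 5 other Cdh genes passed the test (0 also at an unadjusted p under 0.05). T-cadherin (Cdh13), which has no cytoplasmic part and is held by a lipid anchor, read 8.26, 8.24 and 8.46 with Bmi1 and 8.32, 8.31 and 8.25 with the empty vector. These values overlapped (difference 0.02, 95% confidence interval -0.18 to 0.23). The kidney cadherin Cdh16, the intestinal cadherin Cdh17, Cdh23 and Cdh26 had differences between -0.12 and 0.05.

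Genes that work with cadherins were called at a share near that of all genes. Lists of catenins, other genes of the cadherin superfamily, repressors of cadherin genes, cadherin proteases, regulators of the clustered genes and protocadherin partners held 71 measured genes of 77 listed, of which 5 fell and 2 rose (9.86% called, beside 5.7% of all probe sets and 7.35% of all genes). All 7 were among the 50 with a mean of at least 5, where 12.3% of all genes were called. The largest fall was that of Twist1, a mesenchymal transcription factor among the repressors. It read 5.29, 5.13 and 4.47 with Bmi1 and 7.42, 6.98 and 7.70 with the empty vector, a difference of -2.40 (limma adjusted p = 0.0054). Cyfip2, a subunit of the WAVE complex, read 6.73, 6.88 and 6.92 with Bmi1 and 8.23, 8.44 and 8.06 with the empty vector, a difference of -1.40 (limma adjusted p = 0.0020). Neither gene overlapped between the groups. Abi2, another subunit of that complex, fell by 0.40, Tcf4, the other repressor that passed, by 0.45, and the synaptic calsyntenin Clstn2 by 0.66. The rises were those of Arvcf, a catenin of the p120 type, by 0.74, and of Dchs1, a very large cadherin that binds Fat4, by 0.63. The limma adjusted p of these 5 genes ran from 0.015 to 0.039.

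Of 10 catenins, Arvcf rose and 9 did not pass. Of 24 other superfamily genes, 1 rose and 1 fell. Of 8 repressors, 2 fell, and of 10 protocadherin partners, 2 fell, beside 4.37% of all genes (7.46% of those with a mean of at least 5). None of 7 proteases and none of 13 regulators of the clustered genes, among them Ctcf, passed the test. With 1 sample left out, 2 to 4 of the 7 called genes of these lists passed. Abi2, Arvcf, Clstn2, Dchs1 and Tcf4 each lost their call in at least 1 such fit.

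Markers of the culture were read beside these genes. Of 9 neural progenitor markers Hes5 (difference 1.05) and Sox9 (0.62) rose and 7 did not pass, among them Nes, Sox2, Egfr, Olig2, Fabp7 and Vim with means between 9.66 and 12.3. Their summed level was 13.97 to 14.01 with Bmi1 and 13.92 to 13.97 with the empty vector. Of 5 astrocyte markers Aqp4 and Gja1 rose, and Aldh1l1 (difference 0.13), S100b (-0.38) and the dim Gfap (0.10) did not pass. The astrocyte sum ran from 11.1 to 11.3 with Bmi1 and from 10.8 to 10.9 with the empty vector on the log2 scale. Sums are of unlogged values and follow the brightest probe sets, here Aldh1l1 and Gja1 (means 10.4 and 9.25). Of 4 oligodendrocyte markers none passed, with summed levels of 9.14 to 9.53 with Bmi1 and 8.84 to 8.95 with the empty vector. That sum mainly follows Cnp (mean 8.96, difference 0.45). Mbp, Mog and Mag had means of 4.13, 4.57 and 3.97. No endothelial, pericyte or fibroblast marker was called, and Col1a1 and Col1a2 were the brightest of the pericyte and fibroblast list (means 5.66 and 5.54). The sums of 6 endothelial markers were also higher with Bmi1 (6.78 to 6.80, against 6.63 to 6.69 with the empty vector). All 6 had means under 5, with 4 differences above 0 and 2 below, and Flt1 alone (difference 0.38) did not overlap between the groups. The sums of 7 pericyte and fibroblast markers were higher with Bmi1 too (7.14 to 7.25 with Bmi1, 7.01 to 7.09 with the empty vector). Those of 5 neuron markers, of which the dim Dcx rose, overlapped (6.99 to 7.22 with Bmi1, 7.01 to 7.15 with the empty vector), as did those of 5 microglia markers (5.60 to 5.70 with Bmi1, 5.53 to 5.72 with the empty vector) and of 6 epithelial, ependymal and choroid plexus markers (7.00 to 7.11 with Bmi1, 7.10 to 7.21 with the empty vector), with none of these 11 called. Pecam1 of endothelial cells and Pdgfrb of pericytes read 3.37 and 3.55 on average over all samples. VE-cadherin (Cdh5) of endothelial cells read 3.80 ± 0.10 with Bmi1 and 3.81 ± 0.06 with the empty vector (SD, n = 3 each). The part of cell composition in the differences above was not tested, and in these bulk samples fewer cells of a type and less RNA per cell cannot be told apart.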

How the data were processed

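Total RNA (300 ng) of each of 6 neurosphere samples was hybridized to a Mouse Gene ST 1.0 array of Affymetrix. The authors deposited log2 values per probe set, for which the submitters' processing notes name RMA and Affymetrix Expression Console. RMA corrects the background, makes the arrays alike by quantile normalization and summarizes the probes. Software versions and genome build were not given in the sources used here. Precision is limited by the small number of arrays (3 per group).

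Gene names came from the annotation of the platform (1 gene for 21789 of 35557, several for 1621). All 57 member identifiers had an entry in the RefSeq genes of GRCm38.p6, used for chromosomes and gene order. Groups were taken from the titles. Differences were tested with limma 3.58.1 in R 4.3.3 (two-sided, no filter, Benjamini-Hochberg adjustment over all probe sets). The script was tested on simulated data. Figures were drawn with matplotlib 3.10.9.

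Members, lists and tests were chosen with earlier results of these data known. Named were all called members, the 3 with the highest mean of the classical, clustered and non-clustered groups (an order used only to choose names), and Cdh1, Cdh2, Cdh4, Cdh11, Cdh13, Pcdh8, Pcdh10 and Pcdh19, and up to 4 called genes per related list. The remaining genes were named after their values were seen. Alternatives were the methods' t-test, a Welch test, 2 filters on low means, 1 probe set per gene, the mean of all own probe sets, median centring, quantile normalization, another variance prior, array weights, a replicate block and leaving out each array. The other own probe set was added as an alternative after seeing the data.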

Additional observations from a re-analysis of the deposited data

Results flagged for a closer look

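The probe set of Pcdh15 that was not chosen, because its mean over all arrays was slightly lower, rose by 1.09 on the log2 scale in Bmi1-overexpressing samples (adjusted p = 0.011 from limma). It was singled out as a signal in data outside the main comparison. With 3 arrays a group, single outlying arrays were not looked for.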

How the results depend on the processing

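Of the 57 members 9 passed the test, and 5 to 7 passed with 1 sample left out. Over all probe sets, such fits called 974 to 1275 in place of 2025. The ranges were 1 to 2 in place of 2 for classical cadherins, 3 to 5 in place of 5 for clustered and 0 to 1 in place of 2 for non-clustered protocadherins, and 2 to 4 in place of 7 for the related lists. At the study's thresholds the methods' t-test called 1 member, the clustered Pcdhb6, with 0 classical and 0 non-clustered members and 1 related gene. After Benjamini-Hochberg adjustment it called 4 members (2 of them clustered, 0 non-clustered) and 3 related genes, and its Welch form called 0 members in each group and 0 related genes. With the replicate block, 3 members passed, Pcdhb6, Pcdhb19 and Pcdh10 (0 classical, 2 clustered, 1 non-clustered), as did 3 related genes, and over all probe sets 850 in place of 2025. Deviations of same-numbered samples were not visibly correlated (3.4e-05, -0.03 and -0.02). These correlations cannot show whether same-numbered cultures were handled together. A filter at a mean of 5 gave 13 members and 14 related genes. Of the non-clustered members 4 then passed, 3 higher and 1 lower with Bmi1 (Pcdh19, limma adjusted p = 0.043). Of the clustered members 6 passed, 5 lower and 1 higher (Pcdhb16, limma adjusted p = 0.019). A filter at 6 gave 11 related genes and left no clustered member to test. With 1 probe set per gene there were 13 members (4 classical, and Pcdhb16 again higher, limma adjusted p = 0.024) and 12 related genes. With the mean of all own probe sets there were 14 members (4 classical, 4 non-clustered) and 12 related genes. Median centring gave 11 members (4 classical), and the other variance prior 12 members (4 classical) and 12 related genes. Repeated quantile normalization gave 9 members, 1 of them non-clustered. Over 433 values of 25 members under alternatives, 346 kept direction and call, 52 lost the call, 27 gained one and 8 turned sign. All 52 losses belong to the 9 called members, since only a called gene can lose a call. They ran from 1 of 17 alternatives for Pcdhb6 to 9 of 17 for Pcdhb20 and 11 of 16 for Pcdh1. Most of the 27 gains were those of Cdh10 (8 of 18), Cdh19 (6 of 16) and Pcdh18 (5 of 17). The values that turned sign were small for Cdh13 (-0.0276 after median centring, -0.0468 to 0.0664 with 1 sample left out). They were also small for Pcdh9 (-0.0364 after median centring, -0.0521 to 0.0924 with 1 sample left out, -2.0e-04 with the mean of its probe sets and -0.0163 with the other one). Cdh24 went from 0.23 to -0.22 with its other probe set. The cause of these shifts was not tested. Differences of dim probe sets near 3 on the log2 scale are limited by signal over background.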
